A study of Mus musculus with 4 samples.

Results

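The read-poor windows were 582 stretches of 1 Mb on the mouse autosomes in which RNA-seq of embryonic stem cells (ESCs) left few aligned reads. Each of the 19 autosomes of mm9 was cut into 1-Mb windows from its first base, and the distinct positions (chromosome, start and strand of an aligned read) of 4 libraries were summed in each. Of 2417 windows with any position, 2329 held at least 100 and were kept, and the lowest 1 in 4 by this sum were taken as read-poor. The remaining 1747 kept windows are called other windows. Members were thus chosen by positions summed over both conditions, so their low level is a description and not a result. A window could also be kept although its solvent positions alone fell short of 100. Read-poor windows held 100 to 1860 positions (median 449.5), against a median of 16723 in other windows. They covered 24.95% of the sequenced bases of the kept windows (576.5 Mb) and 0.895% of the positions (352628 of 39391891). The last 3 windows inside the limit held 1856, 1858 and 1860 positions, and the first 3 outside held 1873, 1875 and 1897. The 3 windows with the fewest, chr19:52000001-53000000, chr9:112000001-113000000 and chr11:36000001-37000000, held 100, 101 and 101.

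Cells were TBV2 ESCs of the 129/SvP strain, a line that depends on feeder cells, grown with LIF, a cytokine that holds ESCs undifferentiated. Both conditions lasted 24 h. Libraries solvent 1 and 2 came from cells given solvent alone, and libraries MS-275 1 and 2 from cells given 5 µM MS-275, an inhibitor of class I histone deacetylases. RNA was selected for poly(A) tails, treated with DNase and copied with random hexamers, and the labels mention no strand-specific step. The solvent alignments were labelled ETOH, whereas the study names DMSO as vehicle elsewhere, and the vehicle was not resolved. A single cell line was used, and no label says that both libraries of a condition came from separate cultures, so p-values measure only the spread between these samples.

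Histone deacetylases of class I remove acetyl groups from histone tails within corepressor complexes, and acetylated histones mark active promoters and enhancers. Long stretches of mammalian chromosomes with few genes are poor in GC, replicate late and are mostly silent in ESCs. They carry large genes for neuronal adhesion proteins, arrays of odorant and pheromone receptor genes that are expressed in single sensory neurons, and distant enhancers of developmental genes.

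The windows whose positions changed most are introduced here by their sequence. For each, the 200 bases that held most positions outside annotated UTRs are given on the plus strand of mm9 (NCBI m37 assembly). In the first 4, capitals mark bases covered in both MS-275 libraries and in neither solvent library. Within them the libraries solvent 1, solvent 2, MS-275 1 and MS-275 2 had 0, 0, 6 and 3 positions in an exon of Pcdh17 on chromosome 14. On chromosome 12 they had 0, 1, 35 and 27, on chromosome 6 they had 0, 0, 68 and 34, and on chromosome 7 they had 3, 0, 35 and 13, in each case more than 5 kb from any annotated gene.
chr14:84847268-84847467: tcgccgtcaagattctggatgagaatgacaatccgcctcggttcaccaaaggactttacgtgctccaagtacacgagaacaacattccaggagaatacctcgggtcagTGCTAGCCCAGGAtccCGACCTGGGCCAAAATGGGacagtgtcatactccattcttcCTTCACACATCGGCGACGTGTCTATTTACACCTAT
chr12:91817280-91817479: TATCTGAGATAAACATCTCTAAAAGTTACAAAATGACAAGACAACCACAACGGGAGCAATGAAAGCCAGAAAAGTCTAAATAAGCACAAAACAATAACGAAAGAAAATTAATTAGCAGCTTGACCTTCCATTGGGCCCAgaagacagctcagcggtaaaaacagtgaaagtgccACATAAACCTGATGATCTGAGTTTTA
chr6:16702234-16702433: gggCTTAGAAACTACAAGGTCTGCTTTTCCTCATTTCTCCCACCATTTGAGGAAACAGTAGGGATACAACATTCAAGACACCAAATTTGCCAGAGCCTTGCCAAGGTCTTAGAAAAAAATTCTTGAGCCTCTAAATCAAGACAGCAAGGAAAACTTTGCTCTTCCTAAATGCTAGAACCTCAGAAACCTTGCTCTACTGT
chr7:76750235-76750434: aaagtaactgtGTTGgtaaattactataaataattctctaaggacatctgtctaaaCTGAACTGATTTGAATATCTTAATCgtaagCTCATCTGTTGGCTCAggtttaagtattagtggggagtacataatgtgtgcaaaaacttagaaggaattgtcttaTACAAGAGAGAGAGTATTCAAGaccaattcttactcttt
The last 2 sequences fell, and here capitals mark bases covered in both solvent libraries and in neither MS-275 library. The libraries had 21, 44, 2 and 8 positions in the one on chromosome 5 and 76, 51, 21 and 17 in the one on chromosome 16, again more than 5 kb from genes.
chr5:60342596-60342795: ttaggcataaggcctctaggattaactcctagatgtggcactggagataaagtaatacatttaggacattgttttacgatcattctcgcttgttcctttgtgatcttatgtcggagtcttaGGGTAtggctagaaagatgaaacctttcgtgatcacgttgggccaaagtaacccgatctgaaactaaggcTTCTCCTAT
chr16:25523331-25523530: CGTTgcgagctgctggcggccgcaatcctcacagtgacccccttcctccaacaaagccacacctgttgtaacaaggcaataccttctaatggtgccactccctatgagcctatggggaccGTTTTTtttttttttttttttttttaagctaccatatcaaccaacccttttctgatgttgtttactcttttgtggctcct

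Alignments numbered 9785619 to 23467935 per library and distinct positions 9122347 to 10973569. The alignments of replicate 1 kept repeats of a position (53.2% and 54.4% of alignments), while those of replicate 2 listed each position once. In replicate 2, plus-strand positions were listed 2 bases further on. Libraries with the same number thus share their processing, and their deviations from the group mean correlated at 0.532 over the 582 read-poor windows. Values within a pair are therefore printed beside the pooled ones. The relative values of 419 genes in read-poor windows followed the positions of the other replicate of the condition (Spearman's rho 0.825 to 0.883 across genes) more closely than those of the same number (0.118 to 0.467). Whether alignments were exchanged within each condition was not settled, so no gene value is compared with positions library by library.

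Read-poor windows held a larger share of the positions with MS-275. The share was 0.708% in solvent 1 and 0.617% in solvent 2, and it was 1.35% in MS-275 1 and 0.951% in MS-275 2. Both treated libraries lay above both solvent libraries, with means of 0.662% ± 0.0646 (SD, n = 2) and 1.15% ± 0.285 (SD, n = 2). The ratio of the means was 1.74, and it was 1.91 within pair 1 and 1.54 within pair 2. An exact permutation test over the 4 libraries gave p = 0.333 (two-sided), the smallest value that 2 against 2 can reach. Binomial 95% intervals (Wilson) were 0.703 to 0.713% and 0.612 to 0.622% for solvent, and 1.345 to 1.361% and 0.945 to 0.956% for MS-275. They cover counting error only. In other windows the ratio of the shares was 0.995, which is fixed by the read-poor shares because the 2 parts make up the whole. When windows were ranked on replicate 1 alone, their share in replicate 2 was 0.551% with solvent and 0.867% with MS-275. Ranked on replicate 2 alone, they held 0.862% and 1.57% of the positions of replicate 1.

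**Figure D1:**
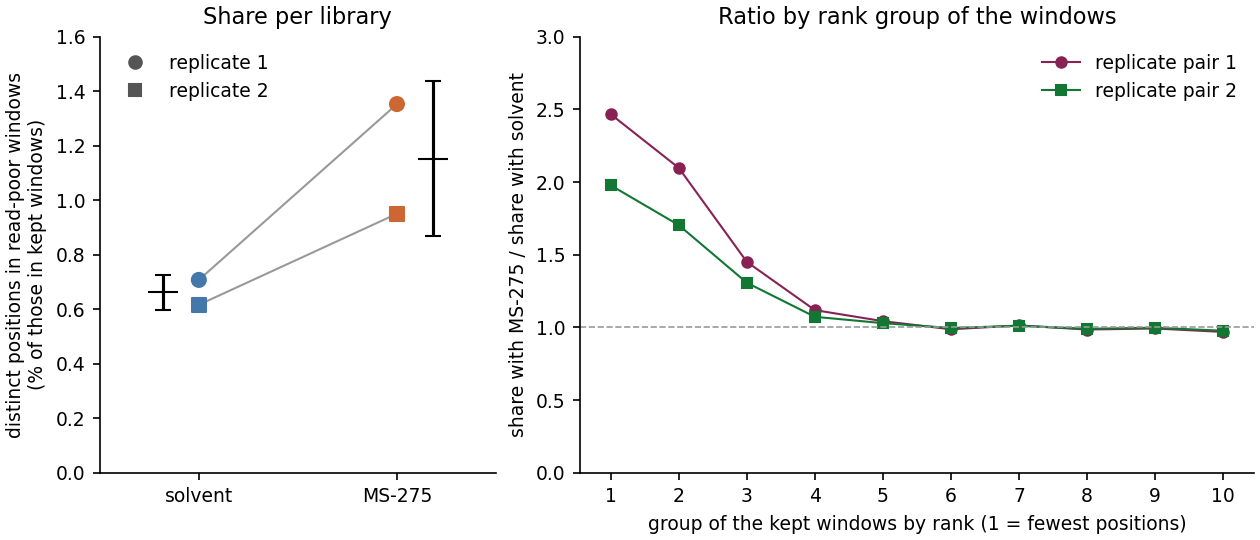
Left, share of each library's distinct positions (% of those in kept windows) in the 582 read-poor windows, with circles for replicate 1, squares for replicate 2, lines joining a pair, and bars for mean ± SD (n = 2). Right, ratio of the MS-275 share to the solvent share in 10 groups of kept windows ranked from the fewest to the most positions. The ratio falls from 2.47 and 1.98 in the lowest group to 0.969 and 0.978 in the highest.

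The excess grew towards the windows with the fewest positions. Kept windows were ranked into 10 groups of like size. The lowest group (100 to 372 positions) held 0.0963% and 0.0687% of the solvent positions and 0.238% and 0.136% of the MS-275 positions, a ratio of 2.26. The ratio was 1.92 in the next group, 1.38 in the third and 1.10 in the fourth. From the fifth to the highest group it stayed between 0.973 and 1.04. Every autosome showed the same direction. On each of the 19, both MS-275 libraries exceeded both solvent libraries, with a ratio from 1.21 on chromosome 9 to 2.47 on chromosome 1.

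Most of the ground in these windows is far from genes, and there the relative rise was largest. Bases more than 5 kb from any annotated gene made up 70.4% of the read-poor windows and introns 24.2%, while exons made up 0.825%. Positions more than 5 kb from a gene numbered 6.98 and 5.54 per Mb and per 1000000 positions with solvent and 16.3 and 9.65 with MS-275, a ratio of 2.07. In introns the density was 9.18 and 8.25 with solvent and 19.9 and 13.5 with MS-275 (ratio 1.91). Exons were denser, at 519 and 489 with solvent against 685 and 654 with MS-275, and rose less (ratio 1.33). In the other windows the ratio was 1.37 beyond 5 kb, 0.941 in introns and 0.989 in exons. Exons held 34.9% and 37.7% of the read-poor positions with solvent and 24.1% and 32.7% with MS-275. Positions beyond 5 kb made up 40.0% and 36.4% with solvent and 48.9% and 41.2% with MS-275. Groups did not overlap in either class, and each exact permutation test gave p = 0.333, again the smallest value possible.

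**Figure D2:**
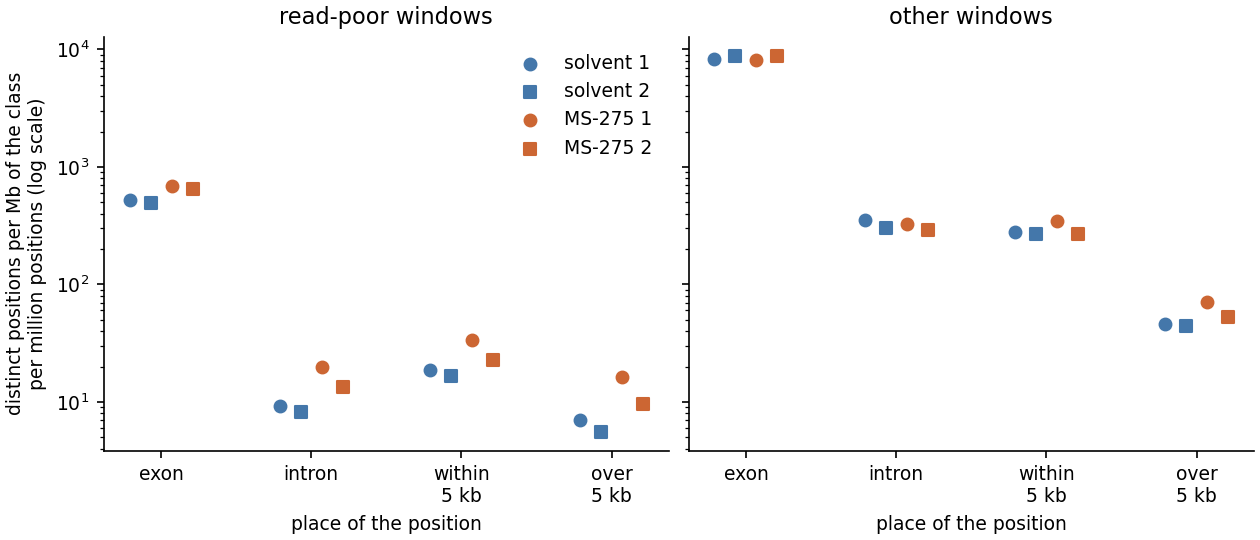
Distinct positions per Mb of each class and per 1000000 positions (log scale) in read-poor (left) and other (right) windows, with 1 symbol per library. In read-poor windows both MS-275 libraries lie above both solvent libraries in every class; in other windows the exon densities of the groups overlap.

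The rise was seen at every distance beyond 5 kb from genes. In read-poor windows the ratio was 2.56 at 5 to 10 kb from the nearest gene, 2.10 at 10 to 50 kb, 1.99 at 50 to 100 kb, 2.04 at 100 to 200 kb and 2.00 at 200 to 500 kb. Beyond 500 kb, where 22.8 Mb held 6452 positions, the density was 5.66 and 3.09 with solvent and 13.7 and 6.88 with MS-275, a ratio of 2.35. In other windows the ratio was 1.21 at 5 to 10 kb and 2.13 at 200 to 500 kb. Beyond 500 kb it was 5.78, from 592 positions on 2.56 Mb.

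More of the sequence was also reached. Of 576502 bins of 1 kb, 21826 and 16277 held a position with solvent and 37356 and 31423 with MS-275, at like numbers of positions per library. Bins with a single position over the 4 libraries had a ratio of 2.66, bins with 2 to 5 had 2.24, and bins with more than 100 had 1.11. Neighbouring bins with at least 20 positions over the 4 libraries were joined into 1295 dense stretches. They lay in 505 of the 582 windows and held 54.7% of their positions. A stretch could pass this limit through its MS-275 positions alone. Inside these stretches the ratio was 1.41, and outside them it was 2.28 (2.48 and 2.01 within the pairs). In 559 of the stretches (43.2%) both MS-275 libraries exceeded both solvent libraries, against 36.1% of all stretches of the kept windows, and in 203 (15.7%) both lay below, against 19.7%. Of the 1295 stretches, 501 lay wholly more than 5 kb from annotated genes, with a ratio of 1.55, and 625 held an exon, with a ratio of 1.27. Both MS-275 libraries exceeded both solvent libraries in 40.3% of the 501 and 42.7% of the 625. For the same kinds of stretches in other windows these were 43.0% and 34.5%, with ratios of 1.29 and 0.961.

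Window by window, limma-voom over all 2329 kept windows called 131 read-poor windows higher with MS-275 and 5 lower at a Benjamini-Hochberg adjusted p under 0.05, where 16.0% of all kept windows were called higher and 8.16% lower. These are 22.5% and 0.859% of the 582. With the replicate pair as a block, 376 were higher and 25 lower (64.6% and 4.30%), against 37.7% and 18.6% of all kept windows. Both MS-275 libraries exceeded both solvent libraries in 394 windows (67.7%, against 44.4% of all) and lay below them in 36 (6.19%, against 23.4%). The median log2 ratio was 0.93 in read-poor windows, 0.03 in the others and 0.11 over all. It was 1.10 in pair 1 and 0.83 in pair 2 for read-poor windows. A change of more than 2-fold upwards was seen in 273 read-poor windows (46.9%) and in 37 others (2.12%), against 13.3% of all. Downwards it was seen in 13 of the 582 read-poor windows and in 12 of the 1747 others, against 25 of all 2329. Changes of this size were thus more frequent among read-poor windows in both directions. Scaling by median ratios moved the median of all windows from 0.11 to 0.01. It gave 135 read-poor windows higher and 10 lower, against 294 and 352 of all 2329. With the trend on GC content removed, 87 read-poor windows were higher and 17 lower, with a median of 0.40. Of all 2329 windows, that fit called 225 higher and 341 lower. Without solvent 1 the median of read-poor windows was 1.12 and 2 passed as higher, and without solvent 2 it was 0.76 and 1 passed. In these fits the lone solvent library is assumed to vary like the MS-275 pair.

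**Figure D3:**
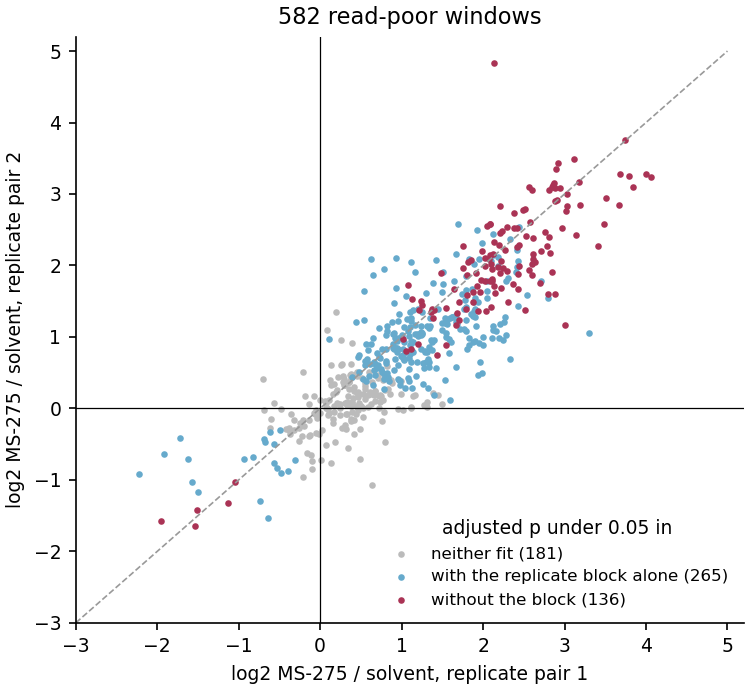
Log2 ratio of MS-275 to solvent in replicate pair 1 (horizontal) and pair 2 (vertical), 1 point per read-poor window, coloured by the limma-voom fit in which its adjusted p was under 0.05. Of the 582 windows, 482 lie above 0 in both pairs and 59 below 0 in both.

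The largest log2 ratio without the block was at chr14:84000001-85000000, which holds Pcdh17, a protocadherin of neuronal cell adhesion. It held 26 and 9 positions with solvent and 293 and 143 with MS-275. This is 2.45 and 0.953 per 1000000 against 33.3 and 13.6, so the groups were far apart. The log2 ratio was 3.69 (SE 0.859, limma adjusted p = 0.0220). Exons of Pcdh17 (chr14:84843370-84936867) held 1 and 1 positions with solvent and 115 and 76 with MS-275, which is 41.0% of the window's positions. A further 39.5% lay more than 5 kb from any gene. With the GC trend removed its log2 ratio was 2.83, the lowest of the 5 named rises, and with exon positions left out it was 2.88.

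In the next 3 windows hardly any of the gain lay in genes. At chr12:91000001-92000000 the libraries held 57, 35, 798 and 373 positions (log2 3.58, SE 0.819, limma adjusted p = 0.0212). The leading gene by exon positions was Dio2, the deiodinase that activates thyroid hormone, with 1, 0, 7 and 4. More than 5 kb from genes lay 93.3% of the positions, and a single 19-kb stretch, chr12:91800001-91819000, went from 12 and 10 to 495 and 248. At chr6:16000001-17000000 the counts were 49, 32, 655 and 352 (log2 3.58, SE 0.729, limma adjusted p = 0.0159), with 93.1% beyond 5 kb. The pseudogene Gm5721 held 25 and 9 of these with solvent and 17 and 5 with MS-275, so it did not share the rise. There the stretch chr6:16684001-16703000, also 19 kb long, held 6 and 8 positions with solvent against 446 and 230. At chr7:76000001-77000000 the counts were 48, 33, 557 and 357 (log2 3.48, SE 0.616, limma adjusted p = 0.0120). No position of this window lay in an exon, and 98.3% lay beyond 5 kb from genes. The 2 stretches of 19 kb were chosen after their values were seen.

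The fifth window, chr16:6000001-7000000, rests on few positions. It contains the first part of Rbfox1, a neuronal splicing factor with one of the longest genes, and held 15 and 1 positions with solvent and 56 and 47 with MS-275. Its log2 ratio of 3.46 (SE 0.954, limma adjusted p = 0.0362) came from 2.13 in pair 1 and 4.83 in pair 2, and without solvent 2 it was 1.86 and no longer called (limma adjusted p = 0.372). No position fell in exons there, and 86.6% lay more than 5 kb from annotated genes. On solvent positions alone neither this window nor the rises named above would have reached the 100 needed to be kept.

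**Figure D4:**
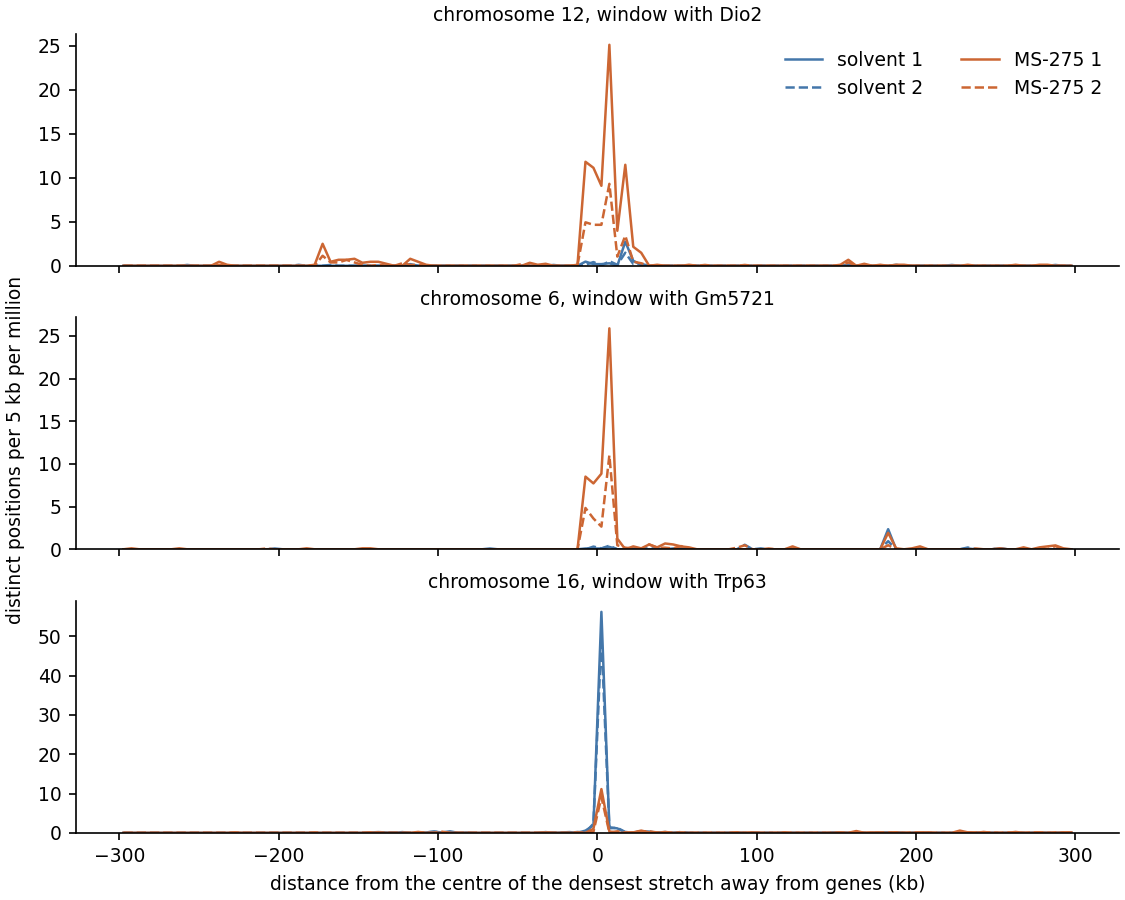
Distinct positions per 5 kb and per 1000000 positions against the distance (kb) from the centre of the densest stretch away from genes, in 3 named windows; solid lines are replicate 1 and dashed lines replicate 2. On chromosomes 12 and 6 the MS-275 libraries stand above low solvent traces around the centre, and on chromosome 16 a narrow solvent peak is lower with MS-275.

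Among the 5 windows called lower, 3 fell away from genes. At chr5:60000001-61000000 the libraries held 273 and 391 positions with solvent and 58 and 146 with MS-275 (log2 -1.71, SE 0.471, limma adjusted p = 0.0362). There 88.0% lay beyond 5 kb, and the pseudogene Cbfa2t2-ps1 held 23, 38, 9 and 34. At chr16:25000001-26000000 the counts were 730, 599, 209 and 213 (log2 -1.60, SE 0.253, limma adjusted p = 0.00985). Nearly all of that loss was in chr16:25517001-25528000, with 618 and 492 positions against 108 and 99. Exons of Trp63 in the same window, encoding the p53 relative of epithelial stem cells, went the other way, from 4 and 10 positions to 32 and 35. At chr4:29000001-30000000 the counts were 166, 164, 48 and 68 (log2 -1.46, SE 0.423, limma adjusted p = 0.0417), and 98.4% lay beyond 5 kb. The pseudogene Gm11918 led there with only 1, 2, 2 and 0 exon positions.

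In the remaining 2 a gene held a large part of the positions. At chr13:33000001-34000000, a cluster of serpin protease inhibitors, the libraries held 520, 525, 197 and 234 positions (log2 -1.22, SE 0.258, limma adjusted p = 0.0174). Exons of Serpinb6c held 243 and 273 of them with solvent and 33 and 53 with MS-275. With all exon positions left out, the log2 ratio of this window was -1.14 and it was still called (limma adjusted p = 0.0282). At chr8:60000001-61000000 the counts were 586, 449, 236 and 246 (log2 -1.05, SE 0.256, limma adjusted p = 0.0258). Exons of Galnt7, an enzyme of mucin-type sugar chains on proteins, held 402 and 351 with solvent and 83 and 164 with MS-275. Without exon positions the log2 ratio of the window on chromosome 8 was -0.27 and it was no longer called (limma adjusted p = 0.650).

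Read-poor windows held few protein-coding genes for their length, but large parts of some gene families. GC content had a median of 38.0%, against 43.0% in other windows. No protein-coding gene started in 197 of the 582 (33.8%), against 16 of 1747 other windows (0.916%). These 197 had a ratio of 1.78, close to the 1.73 of the 385 with a protein-coding start. The ratio was 1.74 in the 291 windows below their median GC content and 1.74 in the 291 at or above it. Read-poor windows formed 340 runs, the longest being 9 windows at chr5:55000001-64000000. Of 21418 autosomal protein-coding genes 1530 (7.14%) started in them, including 402 of 1106 olfactory receptors, 59 of 330 vomeronasal receptors and 19 of 35 bitter taste receptors. Also there were 8 of 13 Slitrk, Lrrtm and Lrrn genes and 7 of 13 contactins and Cntnap genes, which build synapses and axon contacts, 17 of 57 cadherins and protocadherins and 18 of 48 serpins.

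Gene values were examined for 1404 listed genes that start in read-poor windows. The value is the authors' normalized expression signal, which is not a count. Of the 1404, 747 were listed at 0 in all libraries and 419 reached 0.001 in at least 2 libraries and were tested. limma without a block called 0 of them, against 1 of all 20336 genes (0.00492% higher, 0% lower); at an unadjusted p under 0.05, 123 were higher and 18 lower. With the replicate block 132 were higher and 23 lower (adjusted p under 0.05), where 21.0% and 6.46% of all genes tested were called. A gene near 0 with solvent passed the filter only through its MS-275 values, so these counts do not describe all genes of the windows.

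Cadherins and protocadherins, calcium-dependent adhesion proteins, had 15 of 17 listed members past the filter. With the block 6 of these were called higher and 0 lower, where 21.0% of all genes tested were called higher, and Pcdh17 passed the filter only through its MS-275 values. Pcdh17 had values of 0.00033 and 0.00014 with solvent and 0.0160 and 0.0318 with MS-275 (log2 of value + 0.005 2.41, SE 0.446, limma adjusted p = 0.0581, with the block 3.35e-05). Cdh7 had 0.00290 and 0.00298 against 0.0208 and 0.0203 (log2 1.69, limma adjusted p with the block 0.000515). Cdh11 (0.0176 and 0.0162 against 0.0112 and 0.00862) and Pcdh7 (0.00196 and 0.00278 against 0.00211 and 0.00077) did not pass.

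Of the Slitrk, Lrrtm and Lrrn genes, 4 of 8 passed the filter and 2 of these were called higher with the block, a count that the filter itself can set. Lrrtm3, a synapse organiser, had values of 0.00188 and 0.00091 with solvent and 0.0144 and 0.0220 with MS-275 (log2 1.84, limma adjusted p with the block 0.000246). On solvent values alone neither Lrrtm3 nor Slitrk1, which shapes neurites, would have passed the filter. Slitrk1 was listed at 0 in both solvent libraries and at 0.00294 and 0.00275 with MS-275, and its exons held 0, 0, 15 and 9 positions. Among contactins and Cntnap genes, 2 of 7 were tested. Cntn3 had 0.00374 and 0.00146 against 0.0201 and 0.0125 and passed with the block (limma adjusted p = 0.00104), whereas Cntnap4 (0.00027 and 0.00154 against 0.00331 and 0.00271) did not.

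Chemosensory receptor genes were mostly listed at 0. Of 408 listed olfactory receptors 374 were at 0 in all libraries, 8 were tested and 3 rose with the block. Among all genes tested, 21.0% were called higher with the block. On solvent values alone Olfr815, Olfr503 and Vmn1r227 would not have passed the filter, so the filter itself can set these counts. Olfr815 stood out, with 0.00107 and 0.00090 against 0.0241 and 0.0294 (log2 2.40, limma adjusted p with the block 2.93e-05) and 1, 1, 35 and 25 exon positions. Olfr503 was listed at 0 in both solvent libraries and at 0.00566 and 0.00257 with MS-275. Olfr510 (0.00324 and 0.00180 against 0.00291 and 0) and Olfr459 (0.00433 and 0.00180 against 0.00291 and 0.00106) did not pass. Of 49 vomeronasal receptors, 40 were at 0 throughout and 4 were tested. Vmn1r227 rose with the block (0.001 and 0.00041 against 0.00624 and 0.00389, limma adjusted p = 0.0142), and Vmn2r52 (0 and 0.00017 against 0.00107 and 0.00176) did not pass. All 19 bitter taste receptors and all 9 major urinary protein genes were listed at 0 in the 4 libraries. No member passed the filter among keratin-associated proteins (13 listed), killer cell lectin-like receptors (7), Speer genes (5), Skint genes (4), defensins (2) or the prolactin family (2).

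Serpins moved both ways. Of 18 listed, 7 were tested, and with the block 2 rose and 1 fell. Serpinb6c, whose value was 0.201 and 0.117 with solvent and 0.0338 and 0.0154 with MS-275 (log2 -2.50, limma adjusted p = 0.0673, with the block 7.38e-06), fell. Serpinb8 (0.00548 and 0.00414 against 0.02 and 0.0148) and Serpinb6b (0.00594 and 0.00252 against 0.0149 and 0.00989) rose with the block, and Serpinb9b (0.0152 and 0.00938 against 0.0106 and 0.00337) did not pass. All 4 listed potassium channel genes were tested. Kcna4, a voltage-gated channel, passed the filter only through its MS-275 values. With the block it rose (0.00043 and 9e-05 against 0.00249 and 0.00345, limma adjusted p = 0.0454). Kcnj3, an inward rectifier, fell with the block (0.0583 and 0.0195 against 0.0111 and 0.00285, limma adjusted p = 0.000518). Kcnab1 (0.00289 and 0.00097 against 0.00339 and 0.00088) and Kcnip4 (0.0338 and 0.00960 against 0.0184 and 0.00801) did not pass. Neither did Grik2, Ugt8a, Cyp2j9 or Cyp2j6, the tested members of the glutamate receptor, glucuronosyltransferase and cytochrome P450 lists, whose log2 changes lay between -0.19 and 0.57.

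**Figure D5:**
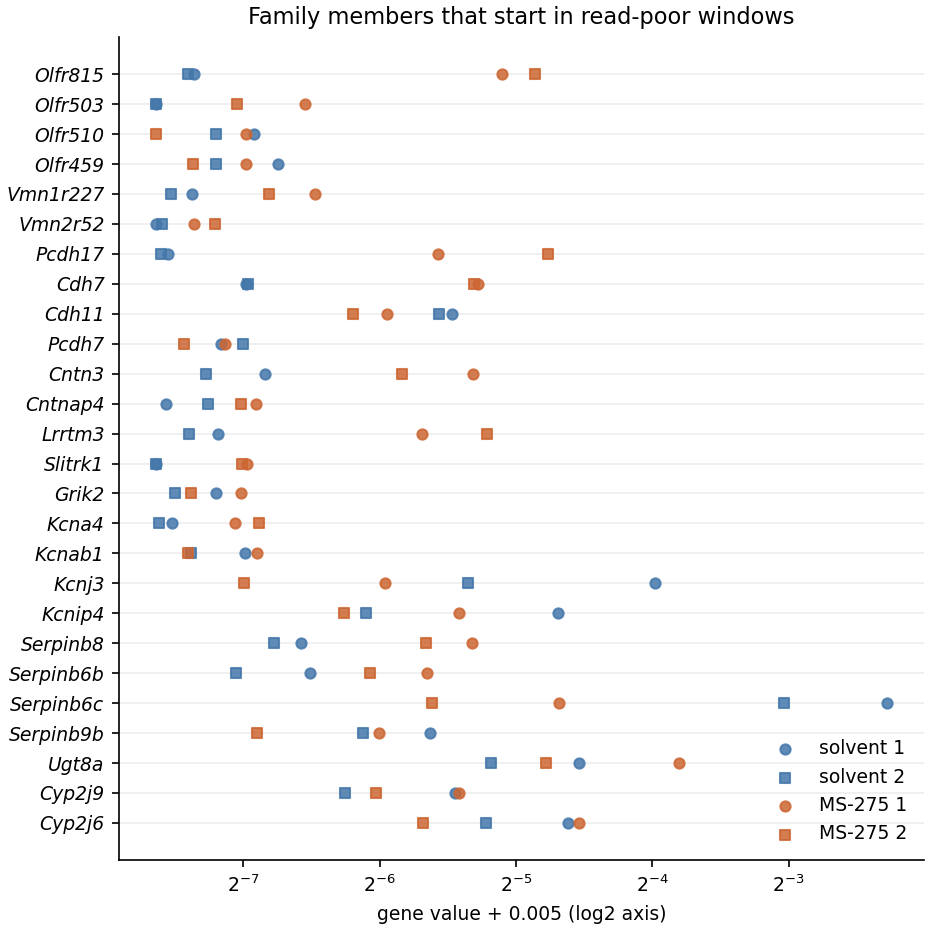
Gene value plus 0.005 (log2 axis) in each library for the family members named above that start in read-poor windows. For Pcdh17, Cdh7, Lrrtm3 and Olfr815 the MS-275 libraries lie well to the right of the solvent libraries, and for Serpinb6c and Kcnj3 they lie to the left.

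Outside the families, some genes among the largest rises with the block were chosen after their values were seen. The largest, 1700018B24Rik, had values of 0.0108 and 0.0105 with solvent and 0.143 and 0.172 with MS-275 (log2 3.37, limma adjusted p with the block 1.39e-06). 4921510H08Rik (log2 2.97), Cox7b2 (2.86) and Fam84a (2.71) also lay above the last 2 genes described here. Aldh1a1, which makes retinoic acid from retinaldehyde, had values of 0 and 0.00042 with solvent and 0.0365 and 0.0325 with MS-275. Its neighbour and close copy Aldh1a7 had 0 and 0.00041 against 0.0458 and 0.0289. How reads of these similar genes were assigned for the values is not given in the sources used here. Their exons held 2 and 0 positions each with solvent, against 103 and 84 for Aldh1a1 and 85 and 105 for Aldh1a7. Tcfap2b, a transcription factor of neural crest, had 0.00090 and 0 against 0.0153 and 0.0377. Like 4921510H08Rik, Fam84a, Aldh1a1 and Aldh1a7, it passed the filter only through its MS-275 values. Dusp10, a phosphatase of stress kinases in the last but one window below the limit, had 0.0206 and 0.0270 against 0.130 and 0.183 (log2 2.48, limma adjusted p = 0.0600, with the block 7.79e-06).

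The largest falls included genes with a substantial solvent level. Pdgfc, a growth factor of the PDGF family, had values of 0.147 and 0.0952 with solvent and 0.0176 and 0.0122 with MS-275 (log2 -2.65, limma adjusted p = 0.0645, with the block 8.83e-06). Its exons held 363 and 262 positions against 43 and 55. Runx1t1, a corepressor, had 0.0535 and 0.132 against 0.0158 and 0.0157, and Zfp462, a zinc finger protein, had 0.218 and 0.183 against 0.0930 and 0.0406. Arid1b, a subunit of the BAF remodelling complex, had 0.126 and 0.118 against 0.0292 and 0.0515. These 4 passed with the block and were likewise chosen after their values were seen.

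All 8 ESC markers (Pou5f1, Nanog, Sox2, Klf4, Esrrb, Zfp42, Tdgf1, Dppa5a) were present in every library, at a summed level of 5.08 and 22.2 with solvent and 4.26 and 13.4 with MS-275. Their exons held 1065 and 1209 positions per 1000000 with solvent and 801 and 960 with MS-275. With the block Pou5f1 (limma adjusted p = 0.0473) and Esrrb (limma adjusted p = 0.00844) fell, and 0 rose. Of the 8 markers of feeder fibroblasts, Fap was listed at 0 in 3 libraries, and the others summed with it to 0.265 and 0.255 with solvent and 0.480 and 0.590 with MS-275. Their exons held 77.8 and 57.2 positions per 1000000 with solvent and 143 and 112 with MS-275. Without the block 0 genes of either list were called. With the block 4 of the feeder markers rose (Col1a1, Col1a2, Thy1, Lum) and 0 fell. Of all genes tested, the block called 21.0% higher and 6.46% lower. Col3a1 (log2 -0.52), Dcn (-0.72) and Postn (0.11) did not pass, and the first 2 were lower in both pairs. In bulk RNA, more cells of a type and more RNA per cell cannot be told apart. The part of either cell type in the rise of the read-poor windows was not tested.

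The reference bases under nearly all positions of read-poor windows had no second exact copy in the genome. The 35 bases under every position of replicate 1 in these windows occurred once on the chromosomes of mm9, and so did those under 99.1% (solvent 2) and 99.3% (MS-275 2) in replicate 2. For every 100th position of other windows it was 100% in replicate 1 and 99.8% in both libraries of replicate 2. Single exact copies were thus not particular to read-poor windows, and copies with mismatches were not counted. With these positions alone, which left out hardly any, the ratio was 1.74. Aligned bases in read-poor windows were 42.8% and 41.9% GC with solvent and 41.4% and 41.7% with MS-275. Of the read-poor positions, 30.3% and 31.1% with solvent were also seen in another library, against 18.3% and 20.8% with MS-275. The share of read-poor windows was also taken within groups of windows of like GC content. It was 25.7% and 23.8% with solvent and 33.7% and 29.3% with MS-275, without overlap (log2 ratio 0.35). These shares have another base than the main ones, so 0.35 cannot be set directly against the main log2 ratio of 0.80. Counted over all alignments with repeats, the main log2 ratio was 0.55. This changed replicate 1 only, as replicate 2 listed each position once. The share in replicate 1 was then 0.803% with solvent and 1.13% with MS-275.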

How the data were processed

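RNA-seq libraries of TBV2 ESCs were analysed in 2 groups of 2. Per the labels, reads were sequenced on an Illumina GAIIx and mapped to mm9. The aligner is not given in the sources used here. The authors deposited the alignments of each library and a normalized expression signal per gene made with Genomatix, whose formula is not given in the sources used here. The authors' tables of ratios hold their own comparison, and their shortened gene lists repeat the signal, so neither was used.

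Distinct positions (chromosome, start, strand) were counted in windows of 1 Mb, and exons, introns and distances were taken from the mm9 annotation. Depth was 9122347 to 10973569 distinct positions per library, and binomial intervals cover counting error only. Windows were tested with limma-voom (limma 3.58.1, R 4.3.3) and gene signals with limma with a trend on log2(value + 0.005), for genes at 0.001 or more in at least 2 libraries, so that fold changes of low genes are understated. Of 28250 listed genes, 21000 were placed by symbol, 284 through an identifier, and 6966 were not placed on an autosome. P-values were adjusted by Benjamini-Hochberg over all features tested (threshold 0.05). Single shares were compared by exact permutation tests.

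Named windows were the 5 largest rises and the 5 falls among windows past the threshold that moved the same way in both pairs, the 3 windows on each side of the limit and the 3 with the fewest positions. Named genes were the gene with most exon positions in each named window and, per family, the 2 tested members with the largest change in each direction. The windows, lists and tests were chosen with earlier results of these data known. Replicate numbers pair libraries of like processing, as the authors' naming of the alignments gives both libraries of a number the same mark. Deviations from the group means correlated at 0.673 over 2329 windows and 0.764 over 20336 genes. Alternatives changed window length, limits, position classes, scaling, the replicate block, GC content, pseudocount and filter, and left out each library. Repeat annotation was not used here.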

Additional observations from a re-analysis of the deposited data

How the results depend on the processing

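The log2 ratio of the share (0.80) stayed above 0 in 27 of 27 alternatives, from 0.17 to 1.19. It was 1.10 with windows of 500 kb, 0.28 with 2 Mb, 1.18 for the lowest 10% of windows and 0.17 for the lower 50%. With at least 1000 positions it was 0.23, and with all alignments 0.55. Positions over 5 kb from genes alone gave 0.53. Without bins that hold over 10% of their window it was 1.03. Against windows of like GC it was 0.35, from larger shares on another base. Alternatives chosen after seeing the data gave 0.42 for exons alone and 1.19 outside dense stretches. Leaving out 1 library gave 0.52 to 1.03, and the pairs of the replicate block gave 0.93 and 0.62. For read-poor windows called higher (131) and lower (5), the replicate block gave 376 and 25, and exons left out 217 and 9. The GC trend removed gave 87 and 17, and the same with the block 245 and 86. Over all 2329 kept windows these 4 fits called 878 and 434, 481 and 154, 225 and 341, and 568 and 782. Lower calls numbered 10 with median-ratio scaling, 9 with a limma trend and 1 with all alignments, against 352, 221 and 3 of all. Fits with the block added after seeing the data gave 372 and 32 (median ratios) and 367 and 25 (trend). Over all windows they called 716 and 672, and 851 and 425. Leaving out 1 library gave 1 to 272 higher and 0 to 6 lower. For gene values (0 and 0 calls) the block gave 132 and 23, with median ratios 134 and 28, and leaving out 1 library gave 0 to 2 and 0 to 1. The intron share changed by 1.74 points, by -1.62 without bins over 10% of their window and by 2.81 with all alignments; near genes the change was -0.65, -0.12 and -1.57. The 10 named windows kept their direction in all 130 alternatives and lost the call in 29, of which 10 were without solvent 1 and 9 without solvent 2. Among named genes 11 of 470 alternatives turned the direction, all on leaving out 1 library, where on the log2 scale Olfr510 ranged from -0.58 to 0.0796, Olfr459 from -0.43 to 0.026, Grik2 from -0.0336 to 0.33, Kcnab1 from -0.22 to 0.29, Kcnip4 from -1.15 to 0.26, Cyp2j9 from -0.27 to 0.53 and Cyp2j6 from -0.76 to 0.38. The causes were not tested. With 2 libraries per group no permutation test can pass 0.05. Without 1 library, the remaining one of its group is assumed to vary like the other group.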
